A study of Homo sapiens with 18 samples.

Results

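The 10 genes described here, of 22468 genes measured, encode enzymes that recycle purines, with a pair that also act in making them anew. They are ADA, AMPD1, AMPD2, AMPD3, ADK, PNP, HPRT1, NT5E, ADSL and ATIC. The genes were listed for their place in purine metabolism, and each is measured by 1 probe set. ADA and AMPD1 were chosen by measured values, namely the drop of their RNA in drug-treated JJN3 cells against DMSO. Their values in every comparison that includes a JJN3 group are therefore given as a description and were not tested.

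Adenosine is formed from AMP by 5′-nucleotidases, of which NT5E (CD73) works on the cell surface. It can be phosphorylated back to AMP by adenosine kinase (ADK) or deaminated to inosine by adenosine deaminase (ADA). Purine nucleoside phosphorylase (PNP) splits inosine to hypoxanthine, which the phosphoribosyltransferase HPRT1 returns to IMP. AMP deaminases (AMPD1, AMPD2 and AMPD3) convert AMP to IMP directly, while ADSL and ATIC carry out late steps of de novo IMP synthesis and ADSL also completes the return from IMP to AMP. Lymphocytes depend on this route, and inherited lack of ADA or of PNP causes immunodeficiency. AMPD1 is known as the isoform of skeletal muscle and AMPD3 as that of red blood cells.

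RNA was measured on 18 whole-transcriptome arrays, 3 in each of 6 groups. KMS12-BM, a multiple myeloma line, and JJN3, a plasma cell leukemia line, each received the solvent DMSO, amiloride or TG003 for 24 h. Amiloride, a diuretic that blocks sodium channels, was used at 0.1 mM in KMS12-BM and at 0.4 mM in JJN3, so that the dose differs with the line. TG003, an inhibitor of CLK kinases, was used at 0.4 mM in both, and the medium held 20% serum for KMS12-BM and 10% for JJN3. Every group is 1 established cell line, and whether its 3 arrays came from separate cultures is not stated, so p-values may measure technical spread alone.

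Of 8 plasma cell markers, 6 lay above the background reference in each line, IRF4, XBP1, PRDM1, MZB1 and TNFRSF17 in both, with CD38 in KMS12-BM and SDC1 in JJN3. SDC1 in KMS12-BM, CD38 in JJN3 and SLAMF7 in both lay below it. The reference, 6.87 on the log2 scale, is the 95th percentile of 92 probe sets for ERCC spike-in sequences, and 9 of the 10 members, all but NT5E, exceeded it in at least 1 group. CCND1 marked KMS12-BM, and MAF and CCND2 marked JJN3. None of 13 measured markers of T, NK, myeloid, stromal and erythroid cells reached the reference, the highest being HBB at 6.79 in JJN3 DMSO. The globin gene HBD, which was not on the marker list, lay above it there, at 7.38. One array, number 3 of KMS12-BM with amiloride, carries JJN3 as its cell line but a title, source and dose of KMS12-BM. Its CCND1 value of 14.84 and CCND2 value of 5.85 are those of KMS12-BM, and it was kept there. Without it, the same number of members, 5, was called in KMS12-BM under amiloride.

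RefSeq windows of 250 bases upstream of the annotated start, in GRCh38.p14, matched 9 of the 10 genes by symbol, all but ADSL. Those of ADA and AMPD1, the genes with the widest range on the arrays, are shown beside that of HPRT1, which is active in most cell types, because they differ in base composition. They are printed 5′ to 3′ along the gene, with capitals marking matches on either strand to TATAAA or GGGCGG.
ADA: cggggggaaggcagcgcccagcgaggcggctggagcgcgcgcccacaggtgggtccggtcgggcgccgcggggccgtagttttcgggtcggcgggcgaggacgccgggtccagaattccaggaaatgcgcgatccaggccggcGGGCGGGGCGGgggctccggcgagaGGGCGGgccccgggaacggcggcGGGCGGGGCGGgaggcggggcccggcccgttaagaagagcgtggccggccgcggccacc
AMPD1: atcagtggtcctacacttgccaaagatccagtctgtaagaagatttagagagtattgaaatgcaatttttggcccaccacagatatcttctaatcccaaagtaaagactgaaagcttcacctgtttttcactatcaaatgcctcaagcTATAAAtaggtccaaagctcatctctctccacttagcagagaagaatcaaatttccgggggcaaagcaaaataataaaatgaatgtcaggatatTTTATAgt
HPRT1: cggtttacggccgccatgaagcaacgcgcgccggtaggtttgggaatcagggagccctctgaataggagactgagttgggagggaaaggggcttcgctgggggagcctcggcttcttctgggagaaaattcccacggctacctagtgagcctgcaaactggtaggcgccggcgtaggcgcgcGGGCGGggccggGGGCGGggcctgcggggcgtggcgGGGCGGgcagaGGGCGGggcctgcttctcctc
The ADA window (chr20:44651700-44651949, minus strand) had a GC content of 80% and 5 GGGCGG matches, of which 2 pairs share a base. The AMPD1 window (chr1:114695547-114695796, minus strand) had a GC content of 37.2%, 2 TATAAA matches and no GGGCGG match. The HPRT1 window (chrX:134459915-134460164, plus strand) had a GC content of 68.8% and 4 GGGCGG matches. Over 35116 such windows the median GC content was 58%, TATAAA occurred in 10.7% and GGGCGG in 42.6%. Neither ACGTG (18.5% of windows) nor TGCTGAC (3.43%) occurred in these 3 windows. A match is a description of the letters and not a binding site.

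ADA lay lower under both drugs in both lines. In KMS12-BM its log2 intensities were 7.01, 7.55 and 7.14 in DMSO, 5.57, 5.62 and 5.60 with amiloride, and 6.09, 6.12 and 6.21 with TG003. All drug-treated arrays lay below all DMSO arrays, and the 2 drugs did not overlap. ADA fell by 1.64 ± 0.15 (SE) on the log2 scale with amiloride (adjusted p = 4e-07 by limma) and by 1.10 ± 0.15 with TG003 (adjusted p = 0.00015). Both drug-treated means, 5.60 and 6.14, lay below the background reference, so that against the reference itself ADA was at least 1.29-fold lower with each drug. Such bounds, which set the brighter group's mean against the reference, are used below for purine genes where only the dimmer mean lies below it. The amiloride and TG003 intensities differed by -0.54 ± 0.15 (adjusted p = 0.012), which at this brightness cannot be read as a difference in RNA. The KMS12-BM comparisons use none of the arrays on which ADA was picked. An array of a cell line gives a mean over cells, so that fewer cells with an RNA and less of it per cell cannot be told apart.

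In JJN3, where the choice was made, ADA stood at 10.48, 10.68 and 10.70 in DMSO, at 8.0, 8.37 and 7.73 with amiloride and at 7.85, 8.22 and 7.81 with TG003. All drug-treated arrays lay below all DMSO arrays, and the 2 drug groups overlapped. Group means were 10.62 ± 0.12, 8.03 ± 0.32 and 7.96 ± 0.23 (SD, n = 3), 6.02-fold and 6.31-fold below DMSO. These folds are the values on which the gene was picked and carry no test. The order of ADA over the 6 groups ran from JJN3 DMSO through JJN3 amiloride and JJN3 TG003, which overlapped, to KMS12-BM DMSO, KMS12-BM TG003 and KMS12-BM amiloride, each above the next. ADA with either drug in JJN3 thus stayed above untreated KMS12-BM, whose mean was 7.23 ± 0.28.

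**Figure D1:**
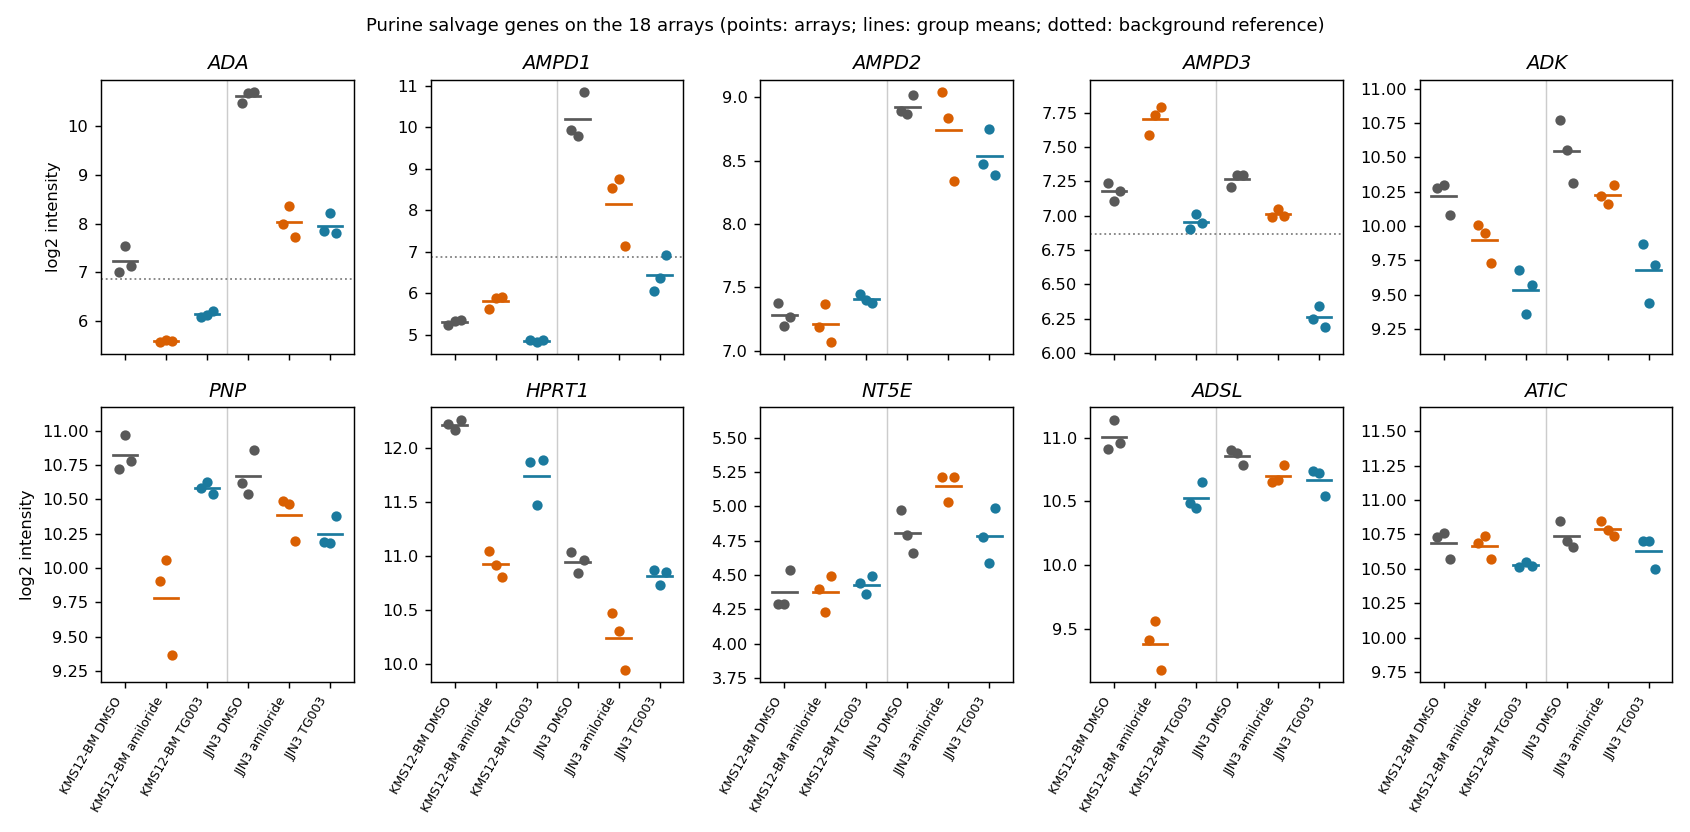
Log2 intensity (y axis, scaled separately for each gene) of the 10 purine genes in the 6 groups of line and treatment (x axis); points are arrays, short lines group means and dotted lines the background reference of 6.87. ADA and AMPD1 span 5.02 and 5.33 between their highest and lowest group means, and ATIC spans 0.26.

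AMPD1 was bright only in JJN3, and there its level differed between the drugs. The JJN3 arrays read 9.94, 9.79 and 10.84 in DMSO, 8.53, 8.75 and 7.13 with amiloride, and 6.04, 6.36 and 6.92 with TG003. The 3 groups did not overlap, with TG003 lowest. Means were 10.19 ± 0.57, 8.14 ± 0.88 and 6.44 ± 0.45 (SD, n = 3), so that AMPD1 lay 4.14-fold below DMSO with amiloride and at least 9.96-fold below with TG003, where it came under the background reference. Between the drugs, AMPD1 was at least 2.41-fold higher with amiloride. Against the DMSO array of the same number, the amiloride differences were -1.40, -1.04 and -3.71, and those of TG003 were -3.90, -3.43 and -3.92. The third amiloride array was the lowest of its group, and without it the mean amiloride difference was -1.55 in place of -2.05. These JJN3 values chose the gene and were not tested. The plasma cell marker TNFRSF17 also lay lower with TG003, at 6.58 (below the reference) against 8.67 in JJN3 DMSO and at 8.03 against 9.73 in KMS12-BM DMSO, and its part in the AMPD1 values was not tested.

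AMPD1 lay below the background reference in all 3 KMS12-BM groups, with means of 5.30 ± 0.06 in DMSO, 5.80 ± 0.17 with amiloride and 4.85 ± 0.03 with TG003 (SD, n = 3). The arrays of these groups did not overlap. The changes from DMSO, 0.50 ± 0.34 with amiloride (95% interval -0.22 to 1.23, adjusted p = 0.34) and -0.44 ± 0.34 with TG003 (-1.17 to 0.28, adjusted p = 0.53), did not pass. Their SE comes from all 18 arrays and includes the wider spread of AMPD1 in JJN3. With only the groups compared in the fit, both passed (adjusted p = 0.0048 and 0.005). The difference between amiloride and TG003, 0.94 ± 0.34, passed (adjusted p = 0.048) between means that both lie below the reference, and this call ended when any 1 of the 6 arrays was left out (adjusted p = 0.062 to 0.12). In DMSO, AMPD1 was at least 9.96-fold and ADA 10.46-fold higher in JJN3 than in KMS12-BM. These line differences use the arrays on which both genes were picked and were not tested.

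The other AMP deaminase genes moved differently. AMPD3 read 7.24, 7.11 and 7.18 in KMS12-BM DMSO, 7.59, 7.73 and 7.79 with amiloride, and 6.90, 7.01 and 6.95 with TG003. In JJN3 it read 7.21, 7.30 and 7.30 in DMSO, 6.99, 7.05 and 7.0 with amiloride, and 6.25, 6.34 and 6.19 with TG003. Within each line the 3 groups were apart, amiloride standing above DMSO in KMS12-BM and below it in JJN3. AMPD3 rose by 0.52 ± 0.06 with amiloride in KMS12-BM (adjusted p = 4.4e-06) and fell by 0.26 ± 0.06 in JJN3 (adjusted p = 0.0087), and the difference between the lines was -0.78 ± 0.09 (adjusted p = 1.3e-05).

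With TG003, AMPD3 fell by 1.01 ± 0.06 in JJN3 (adjusted p = 2.7e-07) and by 0.22 ± 0.06 in KMS12-BM (adjusted p = 0.02), a difference between the lines of -0.79 ± 0.09 (adjusted p = 0.00015). The JJN3 TG003 mean, 6.26, lay below the background reference, so that AMPD3 was at least 1.32-fold lower there, and the log2 differences that use it are of intensity. The KMS12-BM call ended without DMSO array 1 (adjusted p = 0.094), DMSO array 3 (0.057), TG003 array 1 (0.08) or TG003 array 3 (0.059), and with only the groups compared (0.058). The gap between amiloride and TG003 was 0.75 ± 0.06 in each line (adjusted p = 1e-07 in KMS12-BM and 1.1e-06 in JJN3), the JJN3 gap being at least 1.10-fold against the reference. AMPD3 did not pass between the lines in DMSO (0.09 ± 0.06, 95% interval -0.04 to 0.22, adjusted p = 0.3).

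AMPD2 was higher in JJN3 than in KMS12-BM, lines that also differed in serum. Its DMSO means were 7.28 ± 0.09 in KMS12-BM and 8.93 ± 0.08 in JJN3 (SD, n = 3), a 3.13-fold difference (1.65 ± 0.14, adjusted p = 4e-08), and all 9 JJN3 arrays, at 8.34 to 9.04, lay above all 9 KMS12-BM arrays, at 7.07 to 7.45. No drug comparison of AMPD2 passed. Its widest drug difference, -0.39 ± 0.14 with TG003 in JJN3 (95% interval -0.68 to -0.10, adjusted p = 0.098), passed after a further quantile normalization (adjusted p = 0.044). Without JJN3 amiloride array 3, the lowest of its group, AMPD2 was 0.40 higher with amiloride than with TG003 in JJN3 (adjusted p = 0.019).

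HPRT1 was lower with amiloride in both lines. It read 12.22, 12.17 and 12.26 in KMS12-BM DMSO, 11.05, 10.92 and 10.81 with amiloride, and 11.87, 11.47 and 11.89 with TG003. In JJN3 it read 11.04, 10.84 and 10.96 in DMSO, 10.47, 10.31 and 9.95 with amiloride, and 10.87, 10.73 and 10.85 with TG003. Amiloride arrays were the lowest of their line, and untreated KMS12-BM was the highest group of all. HPRT1 fell by 1.29 ± 0.12 with amiloride in KMS12-BM (adjusted p = 5.3e-07), a 2.45-fold change, and by 0.70 ± 0.12 in JJN3 (adjusted p = 0.00095), a 1.63-fold change. The fall was larger in KMS12-BM by 0.59 ± 0.17 (adjusted p = 0.027), but this call ended without any 1 of 7 of the 12 arrays, namely KMS12-BM DMSO arrays 1 and 3, KMS12-BM amiloride arrays 2 and 3, JJN3 DMSO array 2 and JJN3 amiloride arrays 1 and 2 (adjusted p = 0.052 to 0.072).

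With TG003, HPRT1 fell by 0.48 ± 0.12 in KMS12-BM (adjusted p = 0.014), a call lost without DMSO array 3 (adjusted p = 0.052) or TG003 array 2 (adjusted p = 0.082). In JJN3 the TG003 difference was -0.13 ± 0.12 (95% interval -0.40 to 0.13, adjusted p = 0.65), and the difference between the lines, 0.35 ± 0.17, did not pass either (adjusted p = 0.35). In DMSO, HPRT1 was 2.41-fold lower in JJN3 than in KMS12-BM (-1.27 ± 0.12, adjusted p = 2.3e-07).

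ADK showed the reverse order of drugs, with TG003 the lower in each line. Its means were 10.22 ± 0.12 in KMS12-BM DMSO, 9.90 ± 0.14 with amiloride and 9.54 ± 0.16 with TG003, and 10.54 ± 0.23, 10.23 ± 0.07 and 9.68 ± 0.22 in JJN3 (SD, n = 3). Within each line no 2 groups overlapped. ADK fell with TG003 by 0.68 ± 0.13 in KMS12-BM (adjusted p = 0.0016) and by 0.87 ± 0.13 in JJN3 (adjusted p = 0.00039), 1.60-fold and 1.83-fold, and the difference between the lines was -0.19 ± 0.18 (95% interval -0.57 to 0.20, adjusted p = 0.7).

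The amiloride differences of ADK, -0.33 ± 0.13 in KMS12-BM (adjusted p = 0.067) and -0.32 ± 0.13 in JJN3 (adjusted p = 0.13), did not pass, although the former passed after quantile normalization (adjusted p = 0.021), with only the groups compared (0.039) and with only genes above the reference (0.038), and the latter without JJN3 DMSO array 3 (adjusted p = 0.043). In JJN3, ADK was 0.55 ± 0.13 higher with amiloride than with TG003 (adjusted p = 0.0064, and 0.056 after a further quantile normalization). In KMS12-BM that difference, 0.36 ± 0.13 (adjusted p = 0.047), ended without amiloride array 1 (0.16), amiloride array 2 (0.13), TG003 array 2 (0.2) or TG003 array 3 (0.083), and with an intensity trend in limma (0.058). It was 0.23 after quantile normalization (adjusted p = 0.33).

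PNP fell with amiloride in KMS12-BM. Its arrays read 10.72, 10.97 and 10.78 in DMSO, 9.91, 10.06 and 9.37 with amiloride, and 10.58, 10.63 and 10.54 with TG003. The amiloride arrays lay lowest, and the third of them was the furthest down. The change was -1.05 ± 0.14 (adjusted p = 2.1e-05), a 2.06-fold fall, and -0.84 without the third amiloride array. PNP did not pass with TG003 in KMS12-BM (-0.24 ± 0.14, adjusted p = 0.36), with amiloride in JJN3 (-0.29 ± 0.14, adjusted p = 0.24) or with TG003 in JJN3 (-0.43 ± 0.14, adjusted p = 0.078). The last of these passed with only the groups compared (0.049) and with only genes above the reference (0.043). The amiloride response differed between the lines by 0.76 ± 0.20 (adjusted p = 0.014), with the larger fall in KMS12-BM.

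ADSL fell in KMS12-BM with both drugs. Its probe set carries the symbol ADSL without a gene number, so its identity rests on the symbol alone. It read 10.91, 11.14 and 10.96 in KMS12-BM DMSO, 9.41, 9.56 and 9.18 with amiloride, and 10.49, 10.45 and 10.65 with TG003. All amiloride arrays lay below every other array of the line. ADSL fell by 1.62 ± 0.09 with amiloride (adjusted p = 2.4e-09), a 3.08-fold change, and by 0.48 ± 0.09 with TG003 (adjusted p = 0.0021). In JJN3 it lay between 10.54 and 10.90 in all 9 arrays, and neither amiloride (-0.15 ± 0.09, 95% interval -0.35 to 0.04, adjusted p = 0.37) nor TG003 (-0.19 ± 0.09, adjusted p = 0.26) passed. The amiloride response differed between the lines by 1.47 ± 0.13 (adjusted p = 1.8e-06).

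ATIC, which makes the last pair of steps to IMP, passed in none of the 9 comparisons by limma, though its TG003 difference in KMS12-BM, -0.16 ± 0.07, had an unadjusted p of 0.046 (adjusted p = 0.2). After quantile normalization its amiloride difference in KMS12-BM, -0.19, passed (adjusted p = 0.023). Its 6 group means lay between 10.53 and 10.79. NT5E lay below the background reference in every group, at means of 4.37 to 5.15. It passed upward with amiloride in JJN3 (0.34 ± 0.11, adjusted p = 0.047), a call lost without JJN3 DMSO array 2 (0.12) or 3 (0.2), without JJN3 amiloride array 1 (0.14) or 3 (0.14), and with only the groups compared (0.066). At this brightness such a difference cannot be read as a change in NT5E RNA.

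Counts of members called, at an adjusted p under 0.05 over all 22468 genes, are read against the share of genes called. With amiloride in KMS12-BM 4 of 10 fell (ADA, PNP, HPRT1 and ADSL), 1 rose (AMPD3) and 5 did not pass, where 30.6% of all genes (13.6% fell and 17.0% rose) and 59.9% of the 8533 genes above the background reference were called. With TG003 in KMS12-BM 5 of 10 fell (ADA, AMPD3, ADK, HPRT1 and ADSL) and 0 rose, against 14.8% of all genes (6.52% fell and 8.30% rose) and 30.6% of those above the reference. Leaving ADA and AMPD1 aside, amiloride in JJN3 called 3 of 8 (AMPD3 and HPRT1 down, NT5E up), against 14.8% of all genes (6.12% fell and 8.65% rose) and 32.0% of those above the reference. TG003 in JJN3 called 2 of 8 (AMPD3 and ADK, both down), against 9.38% of all genes (5.63% fell and 3.74% rose) and 19.0% of those above the reference. The drug comparisons of a line share its DMSO arrays. Median changes were -0.20 and -0.34 over the 10 members with amiloride and TG003 in KMS12-BM, and -0.22 and -0.29 over the 8 in JJN3, while the medians of all genes lay between -0.02 and 0.02.

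Amiloride differed from TG003 in KMS12-BM for 7 of 10 members, 3 higher and 4 lower, where 29.8% of all genes (15.8% higher and 14.0% lower) and 59.2% of those above the reference differed. The count was 5 or 6 when 1 of the compared arrays was left out, AMPD1 being lost each time. For ADA and AMPD1 both means lay below the reference, so these 2 calls are of intensity. In JJN3 amiloride differed from TG003 for 4 of 8, 3 higher and 1 lower, where 16.9% of all genes (10.5% higher and 6.41% lower) and 34.3% of those above the reference did. HPRT1 was lower with amiloride, and ADK and AMPD3 higher, in both lines. The upward NT5E call in JJN3 (0.36 ± 0.11, adjusted p = 0.031) lies below the reference and ended without amiloride array 1 (0.097) or 3 (0.092) or TG003 array 1 (0.075) or 2 (0.11).

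In DMSO, AMPD2 and NT5E were higher and HPRT1 lower in JJN3, 3 of 8 members, where 41.2% of all genes (18.9% higher and 22.3% lower) and 73.8% of those above the reference differed. Both NT5E means, 4.81 and 4.37, lay below the reference, so this call cannot be read as a difference in NT5E RNA. The amiloride response, at unequal doses, differed between the lines for 4 of 8. The difference, JJN3 minus KMS12-BM, was above 0 for PNP, HPRT1 and ADSL and below 0 for AMPD3, and it passed for 18.5% of all genes (8.68% above and 9.79% below) and for 37.7% of those above the reference. The TG003 response differed for 1 of 8, AMPD3, and for 4.57% of all genes (1.92% above and 2.64% below) and 9.55% of those above the reference.

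**Figure D2:**
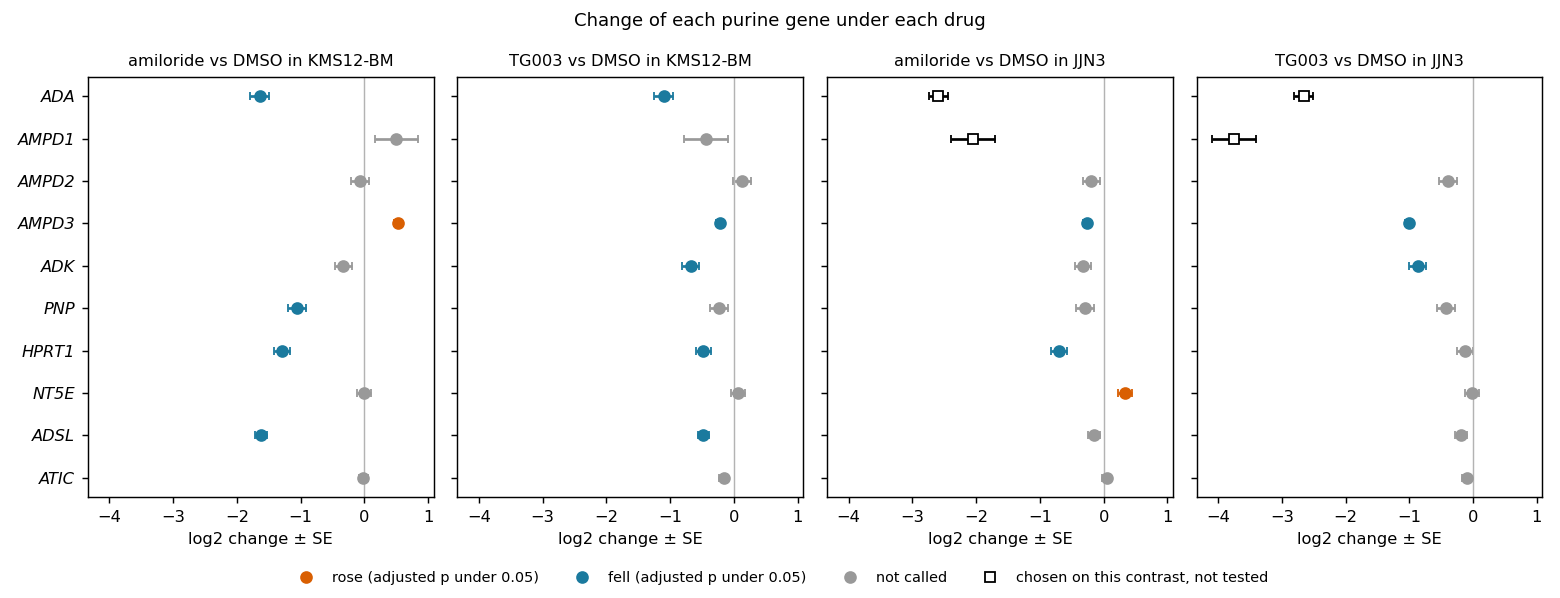
Log2 change ± SE (x axis, 3 arrays against 3) of each member (y axis) in the 4 comparisons of a drug with DMSO; filled colours mark changes that passed by limma, grey those that did not, and open squares the JJN3 values on which ADA and AMPD1 were chosen. ADSL changed by -1.62 with amiloride in KMS12-BM and by -0.15 in JJN3.

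Around the members, 61 further purine genes were measured, of 69 listed. With amiloride in KMS12-BM 21 fell and 7 rose (median -0.09), with TG003 in KMS12-BM 8 fell and 6 rose (median -0.04), with amiloride in JJN3 11 fell and 4 rose (median -0.04), and with TG003 in JJN3 5 fell and 3 rose (median 0.01). Of all genes, in the same order, 13.6% fell and 17.0% rose, 6.52% fell and 8.30% rose, 6.12% fell and 8.65% rose, and 5.63% fell and 3.74% rose. Among the 61, 35 exceeded the background reference in at least 1 group. Of these, in the same order, 17, 7, 9 and 4 fell and 6, 5, 4 and 3 rose. Their medians were -0.34, -0.08, -0.05 and -0.05, against 0.08, 0.02, 0.06 and -0.02 for all genes above the reference. Of all genes above the reference in at least 1 group, 59.9%, 30.6%, 32.0% and 19.0% were called in either direction. The counts of single lists that follow are read against these shares.

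Of 7 nucleoside carriers 3 fell with amiloride in KMS12-BM and 4 did not pass. The 4 lay below the background reference in every group, so that no change in their RNA could be read. Those that fell were the equilibrative carriers SLC29A1 by 1.53 ± 0.12 (adjusted p = 8.9e-08), SLC29A3 by 1.11 ± 0.11 and SLC29A2 by 0.99 ± 0.15. The amiloride means of SLC29A3, 5.88, and SLC29A2, 6.54, lay below the background reference, giving bounds of at least 1.09-fold and 1.59-fold. SLC29A1, which carries adenosine across the plasma membrane, had means of 9.73 ± 0.16 in DMSO, 8.20 ± 0.24 with amiloride and 9.65 ± 0.15 with TG003 (SD, n = 3). In JJN3 amiloride called SLC29A1 (-0.46 ± 0.12, adjusted p = 0.017) and SLC29A2 (-0.68 ± 0.15, adjusted p = 0.0042, at least 1.16-fold), the former not without JJN3 DMSO array 1 (0.079) or amiloride array 3 (0.091). TG003 called 0 of the 7 carriers in either line by limma, and none of SLC29A1, SLC29A2 and SLC29A3 moved by more than 0.24.

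In de novo IMP synthesis 6 of 8 genes fell and 1 rose with amiloride in KMS12-BM (median -0.45). All 8 exceeded the background reference in at least 1 group, and 59.9% of such genes were called in this comparison. Beside ADSL the falls include PFAS, the formylglycinamidine synthase, at -0.77 ± 0.16 (adjusted p = 0.00091), and PRPS1, which makes the ribose phosphate donor, at -0.46 ± 0.11 (adjusted p = 0.0035). PRPS1 also fell in JJN3, by 0.54 ± 0.11 (adjusted p = 0.0029), where 2 of 8 fell, and 2 fell with TG003 in KMS12-BM and 1 in JJN3. Of 5 measured genes that lead from IMP to AMP or GMP, 2 fell with each drug in KMS12-BM and 0 passed in JJN3 with either drug. The IMP dehydrogenase gene IMPDH2 fell with amiloride (-0.59 ± 0.10, adjusted p = 0.00025) and IMPDH1 with TG003 (-0.64 ± 0.13, adjusted p = 0.0029).

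Of 7 salvage genes, which include HPRT1, ADK and PNP, 2 rose and 2 fell with amiloride in KMS12-BM, 1 rose and 2 fell with TG003 there, 1 rose and 2 fell with amiloride in JJN3 and 1 fell with TG003 in JJN3. MTAP was among the rises with amiloride in both lines, but only by its brightest probe set. With the mean over its probe sets the change was -0.06 in KMS12-BM (adjusted p = 0.75 by limma) and 0.14 in JJN3 (adjusted p = 0.51). DGUOK, the mitochondrial deoxyguanosine kinase, rose by 0.77 ± 0.12 with amiloride in KMS12-BM (adjusted p = 0.00011), and DCK, the cytosolic deoxycytidine kinase, fell by 0.37 ± 0.08 in JJN3 (adjusted p = 0.0045). Of 6 deaminase genes 1 rose and 1 fell with amiloride and 3 fell with TG003 in KMS12-BM, the third beside ADA and AMPD3 being ADA2, the secreted deaminase, at -0.95 ± 0.27 (adjusted p = 0.027, at least 1.13-fold). The ADA2 call ended without KMS12-BM DMSO array 1 (0.15), TG003 array 2 (0.11) or TG003 array 3 (0.085).

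Among 10 measured nucleotidase genes the cytosolic IMP and GMP nucleotidase NT5C2 rose with amiloride by 1.08 ± 0.09 in KMS12-BM (adjusted p = 9.1e-08) and by 0.49 ± 0.09 in JJN3 (adjusted p = 0.001), while NT5DC3 fell by 1.55 ± 0.12 (adjusted p = 4.5e-08) and by 0.58 ± 0.12 (adjusted p = 0.0027). The group as a whole had 2 up and 5 down with amiloride and 3 up and 1 down with TG003 in KMS12-BM, and 2 up and 3 down, then 2 up and 1 down, in JJN3. Of 10 genes listed as ectoenzymes, not all of which act on the cell surface, 3 exceeded the background reference in at least 1 group. In KMS12-BM 4 of the 10 fell with amiloride (ENTPD1, ENTPD2, ENTPD5 and ENTPD6) and 3 with TG003. In JJN3 2 fell with each drug, and 0 rose in either line. ENTPD1 (CD39), which works ahead of NT5E on the cell surface, was among them in all 4 comparisons but below the background reference throughout, and its JJN3 amiloride call ended without DMSO array 1 (0.062) or 3 (0.062) and with only the groups compared (0.07). CD38 fell by 1.30 ± 0.23 with TG003 in KMS12-BM (adjusted p = 0.00092). In DMSO it was at least 25.52-fold lower in JJN3, whose mean of 6.03 lies below the reference, than in KMS12-BM (adjusted p = 6.2e-12).

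Of 4 adenosine receptor genes 1, ADORA2A, passed in 1 of the 4 drug comparisons, at -0.31 ± 0.11 with amiloride in KMS12-BM (adjusted p = 0.038, at least 1.11-fold), and this ended when any 1 of the 6 arrays but DMSO array 2 was left out (adjusted p = 0.051 to 0.19). Of 5 measured adenylate and guanylate kinases 1 rose with amiloride in KMS12-BM, 0 passed with TG003 there, 1 rose and 1 fell with amiloride in JJN3 and 1 fell with TG003. Of the 5, 2 exceeded the background reference in at least 1 group. The KMS12-BM rise was that of AK1, whose means of 4.56 and 4.96 lay below the reference, and cannot be read as a change in RNA. AK4, a mitochondrial adenylate kinase, was the one that fell in JJN3, by 0.78 ± 0.11 with amiloride (adjusted p = 0.00017) and 0.90 ± 0.11 with TG003 (adjusted p = 8.1e-05), and in DMSO its intensity was 2.20 ± 0.11 higher in JJN3 than in KMS12-BM (adjusted p = 7.1e-11). The lower mean of each of these pairs (6.57, 6.45 and 5.15) lay below the reference, and the bound against the JJN3 DMSO mean was at least 1.39-fold each time. Of 7 subunit genes of the AMP-activated kinase PRKAB1 rose and 2 fell with amiloride in KMS12-BM, 2 rose and 1 fell with TG003, and 1 rose with each drug in JJN3. PRKAB1 rose by 1.57 ± 0.10 (adjusted p = 7.4e-09), and PRKAG1 rose with TG003 by 0.60 ± 0.09 in KMS12-BM (adjusted p = 0.00031) and 0.63 ± 0.09 in JJN3 (adjusted p = 0.00034). The 3 measured genes for the end of purine breakdown and GMP reduction (XDH, UOX and GMPR) lay below the reference and did not pass in any drug comparison.

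**Figure D3:**
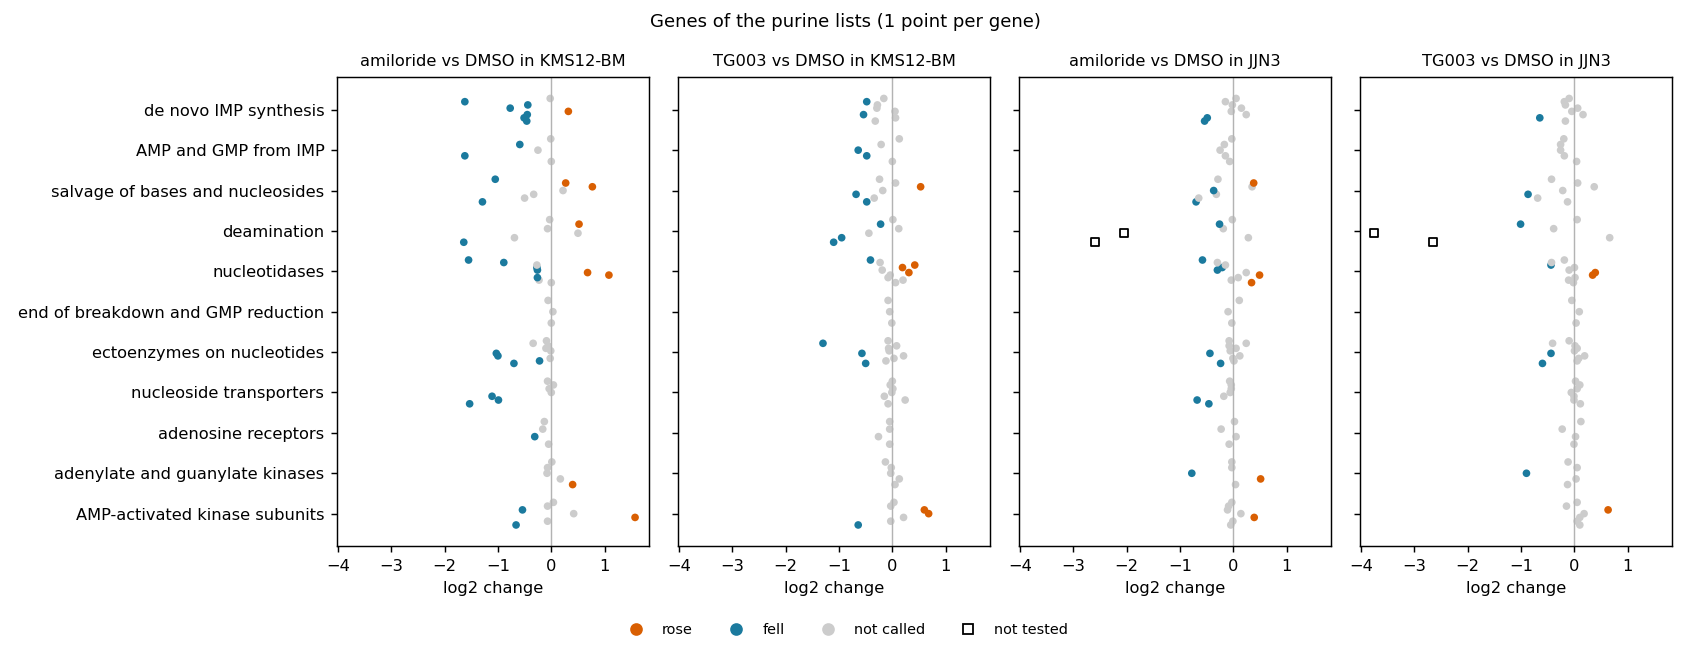
Log2 change (x axis) of each measured gene of the 11 purine lists (y axis), 1 point per gene, in the 4 comparisons of a drug with DMSO; colours mark rises and falls that passed by limma, and open squares are ADA and AMPD1 in JJN3. With amiloride in KMS12-BM 6 of 8 genes of de novo synthesis and 3 of 7 carriers fell, the other 4 carriers lying below the background reference throughout. In that comparison 13.6% of all genes fell, and 59.9% of those above the background reference were called in either direction.

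Patterns over the 18 arrays were compared with Pearson's r among 5503 genes whose group means span at least 1 and reach the background reference. The arrays of a group share their treatment, so r is a description. The genes most like ADA were CMIP (r = 0.981), the sterol sensor partner INSIG1 (0.976), the cholesterol synthesis gene MSMO1 (0.969), PAM (0.968) and PFKFB3 (0.968), a regulator of glycolysis. INSIG1 ran from 11.39 in KMS12-BM DMSO to 10.26 with amiloride and 10.01 with TG003, and from 14.79 to 12.76 and 12.61 in JJN3. Those most like AMPD1 were the chemokine gene CCL3 (0.976), the globin gene HBD (0.971), SERPINE2 (0.967), LRRC41 (0.965) and NFIL3 (0.960). CCL3 ran from 9.54 in JJN3 DMSO to 7.30 with amiloride and 6.14 with TG003, and lay at 5.04 to 6.02 in KMS12-BM. Its JJN3 TG003 mean and its KMS12-BM means lay below the background reference, as did those of AMPD1. Between ADA and AMPD1 themselves r was 0.883, and between AMPD1 and AMPD3 it was 0.066.

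**Figure D4:**
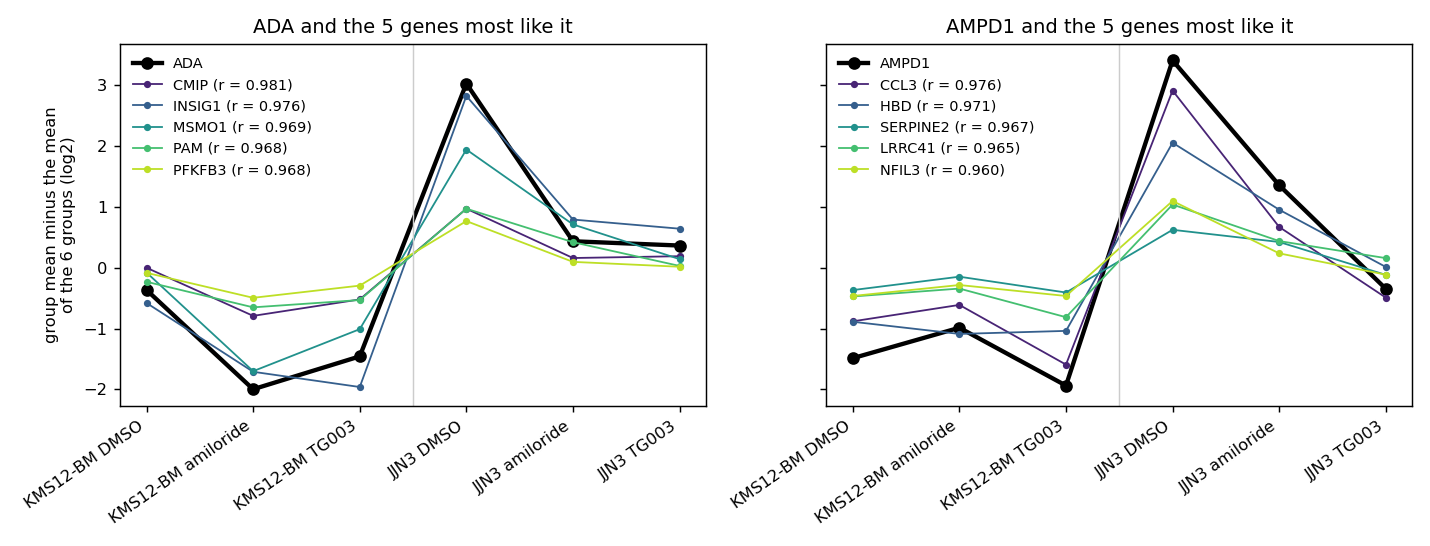
Group means (y axis, log2, each gene centred on the mean of its 6 groups) of ADA, AMPD1 and the 5 genes most like each over the 18 arrays, by line and treatment (x axis). ADA and INSIG1 are highest in JJN3 DMSO and lie lower with both drugs in each line, and AMPD1 and CCL3 are lowest with TG003 in each line. For AMPD1 and CCL3 all KMS12-BM means and the JJN3 TG003 mean lie below the background reference, so their KMS12-BM order is one of intensity.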

How the data were processed

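The deposited table holds log2 values of 70523 probe sets on 18 arrays. The authors made them with RMA, according to the submitters' processing notes, where neither its version nor a genome build was found. Array medians lie between 4.50 and 4.69. The labels name total RNA and the series' design poly A+ RNA. RMA summarises a gene over its isoforms. Probe sets with 1 symbol in the platform annotation (23784 of 25324 listed) gave 22468 genes, the probe set with the highest mean standing for 479 genes with several. Levels of different genes are not comparable.

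For 9 contrasts, two-sided tests came from limma 3.58.1 (R 4.3.3), with 1 model of 6 group means and 12 residual degrees of freedom. P-values were adjusted by Benjamini-Hochberg over the 22468 genes, and 0.05 was the threshold. The model was tested on simulated data. Python 3.11.15 with pandas 2.3.3 and matplotlib 3.10.9 made tables and figures. Members, lists and tests were chosen with earlier results of these data known. Named genes are the members, up to 3 called genes per list and comparison, of which the text gives a part, and the 5 genes most like ADA and AMPD1. Replicate numbers follow the order of serial codes in the titles. With group means removed, 15 of 18 arrays correlated best with their own number, but all 3 numbers exceeded 0.1 in 4 of 15 pairs of groups, so pairing was not taken as given. Alternatives changed the scaling, the samples fitted, the filter on dim genes, the variance prior, the replicate block, the probe set rule and each array in turn.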

Additional observations from a re-analysis of the deposited data

Results flagged for a closer look

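Of the 8 members tested, 4 differed between KMS12-BM and JJN3 in the amiloride response and 1 in the TG003 response, where 18.5% and 4.57% of all genes did. AMPD3 differed by -0.78 under amiloride and by -0.79 under TG003 (JJN3 minus KMS12-BM, log2 scale), its JJN3 TG003 mean lying below the background reference. ADSL differed by 1.47, PNP by 0.76 and HPRT1 by 0.59 under amiloride, the drop from DMSO being the larger in KMS12-BM. These passed limma's test of the difference. For AMPD1 every amiloride array lay above every DMSO array in KMS12-BM and below it in JJN3, a difference of -2.55 that was not tested, since AMPD1 was chosen for its fall in JJN3, and that was -2.05 without JJN3 amiloride array 3. Both KMS12-BM means, 5.30 and 5.80, lay below the background reference, and their difference did not pass (adjusted p = 0.34 by limma). At this brightness it cannot be read as a rise of AMPD1 RNA. The amiloride dose was 0.1 mM in KMS12-BM and 0.4 mM in JJN3, so that line and dose cannot be told apart in the amiloride values.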

How the results depend on the processing

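Over the alternatives, 127 recomputed counts of members stayed within 1.5 times the reported ones and 2 did not. The count for TG003 against DMSO in KMS12-BM ran from 3 to 5 when 1 array was left out, the lowest without DMSO array 3, which ended the calls of AMPD3 and HPRT1. With only the groups compared, 2 in place of 1 differed between the lines under TG003, AMPD2 being added (adjusted p = 0.043). The untested difference of ADA between amiloride and TG003 in JJN3, 0.07, was -0.03 after a further quantile normalization and ran from -0.10 to 0.22 when 1 array was left out, being -0.10 without amiloride array 2 and -0.01 without TG003 array 3. The replicate block added ADK in KMS12-BM under amiloride (6 members called in place of 5, adjusted p = 0.032) and between the lines in DMSO (4 in place of 3, adjusted p = 0.027), ended AMPD1 between the drugs in KMS12-BM (adjusted p = 0.067), and changed no other member's call. Members have 1 probe set each, so averaging probe sets left their values as they were. Of 78 calls of other list genes open to naming, 58 passed under every alternative. ADA, PNP, HPRT1, ADSL and AMPD3 with amiloride in KMS12-BM passed under every alternative run. Precision is limited by 3 arrays a group, and values below the background reference (NT5E, AMPD1 in KMS12-BM and with TG003 in JJN3, AMPD3 with TG003 in JJN3, and ADA in KMS12-BM with either drug) by signal.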
